A study of Arabidopsis thaliana with 18 samples.

Results

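A total of 32 genes of the deposited splicing table carried several listed events, all of them intron retention (IR), alternative 3′ site (A3) or alternative 5′ site (A5) events. They were found by taking each gene with 2 or more listed events and no exon skipping or mutually exclusive exon event, and by leaving out a fixed list of flowering, clock, splicing factor and chromatin genes. The rule used the number and type of listed events and no PSI value directly. The number of listed events itself rests on the authors' calls of temperature differences. The 32 genes are 9.58% of the 334 listed genes, and their 75 events are 18.8% of the 399 listed events. Of these genes, 23 had 2 events, 7 had 3 events, and AT1G78865 and AT2G02570 had 4 events each.

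The series asked how a rise in ambient temperature changes splicing in Arabidopsis thaliana plants with and without 2 histone methyltransferases that place H3K36me3, a mark on transcribed chromatin. The groups were wild type Col-0 (WT) and the knock-out lines *sdg8-2* and *sdg26-1*, each a single mutant line in which SDG8 or SDG26 is disrupted. All plants grew for 5 weeks at 16 °C in short days with 8 h of light and 16 h of darkness, and were collected either at 16 °C or 1 day after a move to 25 °C. Each of the 6 conditions had 3 samples (18 in all) of tissue enriched in shoot apical meristem (SAM), each from about 10 plants, and the labels name early leaves beside the SAM. The table gives 0 events under SDG8 or SDG26 and no expression level, so neither the mutations nor the tissue could be checked in it.

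The value for each event is the PSI, the fraction of the transcripts of an event with the form counted as spliced in. The authors merged the 3 samples of a condition, so there is 1 PSI per event and condition, and no replicate error or test can be given. Per the methods, an event needed a minimum of reads specific to its forms in several replicates, but the depth behind each PSI is unknown. Each listed event carries the authors' call of a temperature difference in at least 1 genotype, which favours events with a large change in some genotype. A change is given as 25 °C minus 16 °C, and changes or differences of at least 0.1 were counted. For an IR event the spliced-in form is taken as the transcript that keeps the intron. For A3 and A5 events, which of the competing sites counts as spliced in is not given in the sources used here, so their sign says only that the ratio of the forms moved. Events of a gene are numbered in the order of the table. Their positions are not given, so several IR events of a gene may concern the same intron. Where an event went from one value to another, the first is the PSI at 16 °C and the other the PSI at 25 °C, and values without a genotype follow the order WT, *sdg8-2*, *sdg26-1*.

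Splicing removes introns between a 5′ site, which usually opens the intron with GT, and a 3′ site, which usually closes it with AG. Alternative splicing joins different sites of one gene, and in plants retention of a whole intron is a common form of it. Retained introns and shifted sites often bring an early stop codon into the reading frame, and such transcripts can be degraded by nonsense-mediated decay or held in the nucleus. A gene with several events can therefore make several combinations of transcripts, and events that use the same intron are not independent, since a transcript that keeps an intron uses neither of its alternative sites.

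In 4 of the genes the RefSeq annotation (TAIR10.1) holds exactly 1 pair of alternative sites of the listed type, lying in an intron that is also annotated as retained, with both an IR event and a site event in the table. The sites of these pairs are shown because they are the places where such a pair of events could meet. The table gives no position of an event within its gene, so the link between a listed event and an annotated site is not established. Each line has 10 exonic and 14 intronic bases, 5′ to 3′ on the strand of the gene, and capitals mark the first or last 2 bases of the intron.
AT1G49730 A3, longer intron (chr1:18403446-18403469, reverse strand): gttctctcctccAGgaatatcttc
AT1G49730 A3, shorter intron (chr1:18403483-18403506, reverse strand): tatatcttttacAGtttttggttc
AT2G02570 A5, longer intron (chr2:698326-698349, reverse strand): ttatgcttttGTaaggattttcag
AT2G02570 A5, shorter intron (chr2:698312-698335, reverse strand): ggattttcagGTacttaaaaagtc
AT3G45050 A5, longer intron (chr3:16477119-16477142, forward strand): gagtttacaaGTacgttaaactct
AT3G45050 A5, shorter intron (chr3:16477156-16477179, forward strand): cgattcaaagGTttagcatagctt
PLDGAMMA2 A5, longer intron (chr4:7116985-7117008, reverse strand): gctccaacaaGTaagcctattcaa
PLDGAMMA2 A5, shorter intron (chr4:7116953-7116976, reverse strand): ctactggcagGTaaataatctgtt

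The competing sites lie 37 bases apart in AT1G49730, 14 in AT2G02570, 37 in AT3G45050 and 32 in PLDGAMMA2. The annotated introns are 104 and 67 bases long in AT1G49730, 148 and 134 in AT2G02570, 171 and 134 in AT3G45050, and 110 and 78 in PLDGAMMA2. All of the competing introns open with GT or close with AG at the site shown. Both introns of AT1G49730 and of PLDGAMMA2 lie within the coding span of an annotated transcript. In AT2G02570 and AT3G45050 the competing introns do not both lie within such a span.

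Intron retention was the most frequent type among the 75 events, with 38 IR events (50.7%), 20 A3 events (26.7%) and 17 A5 events (22.7%). Among the 259 genes with a single event of these types, 39.8% of events were IR, 39.8% A3 and 20.5% A5. One type of event was listed in 14 genes, of which 8 had IR only, 4 A3 only and 2 A5 only, and 17 genes combined IR with an alternative site. The annotation describes 27 of the genes as protein coding, 4 as pseudogenes and AT1G78865 as a noncoding RNA. For 10 genes it holds no alternative form of a type listed for the gene, and 4 of these (the pseudogenes AT2G11240.1, AT3G42806.1, AT4G07507.1 and AT5G34790.1) have no annotated intron at all, so their events rest on transcripts the authors assembled.

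At 25 °C, more of the 75 events had a lower than a higher PSI in every genotype. In WT, 45 events (60.0%) changed by at least 0.1, beside 51.1% of all listed events. Of these, 15 were higher (20.0%, all listed 23.3%) and 30 were lower (40.0%, all listed 27.8%). In *sdg8-2*, 50 events (66.7%) passed 0.1, beside 56.1% of all listed events, with 19 higher (25.3%, all listed 24.3%) and 31 lower (41.3%, all listed 31.8%). In *sdg26-1* the count was 54 (72.0%), beside 59.6%, with 18 higher (24.0%, all listed 24.8%) and 36 lower (48.0%, all listed 34.8%). The shares are close to those of all listed events for higher PSI and above them for lower PSI. The sets differ in event types, with 38 IR events among the 75 and 155 among the 399 listed, which also include exon skipping. Shares by type are therefore given below, and for A3 and A5 events a lower PSI does not name a site. Counting 9 sets of near-identical events once left 66 events. Of these 66, 25 were lower by at least 0.1 in WT, 27 in *sdg8-2* and 31 in *sdg26-1*. All listed events were not counted in this way, so no share stands beside these counts.

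By median, the absolute change of the 75 events was 0.11 for WT, 0.14 for *sdg8-2* and 0.13 for *sdg26-1*, beside 0.10, 0.11 and 0.11 over all listed events. Less retention at 25 °C, that is a lower PSI, was found for 26 of the 38 IR events in WT (68.4%). In *sdg8-2* this held for 27 (71.1%), and in *sdg26-1* for 28 (73.7%). Over all 155 listed IR events the shares were 61.3%, 62.6% and 64.5%. Of 20 A3 events, 13 were lower at 25 °C in WT, 14 in *sdg8-2* and 13 in *sdg26-1* (65.0%, 70.0% and 65.0%, all listed 53.8%, 54.6% and 55.4%). Of 17 A5 events 8, 7 and 6 were lower in the same order of genotypes (47.1%, 41.2% and 35.3%, all listed 47.9%, 49.3% and 45.2%). The direction was the same in all 3 genotypes for 65 events (86.7%), beside 84.0% of all listed events. In 34 events of 22 genes (45.3% of events, all listed 31.6%) the change was at least 0.1 in every genotype, and in 11 events (14.7%, all listed 19.3%) it was below 0.1 in every genotype.

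**Figure D1:**
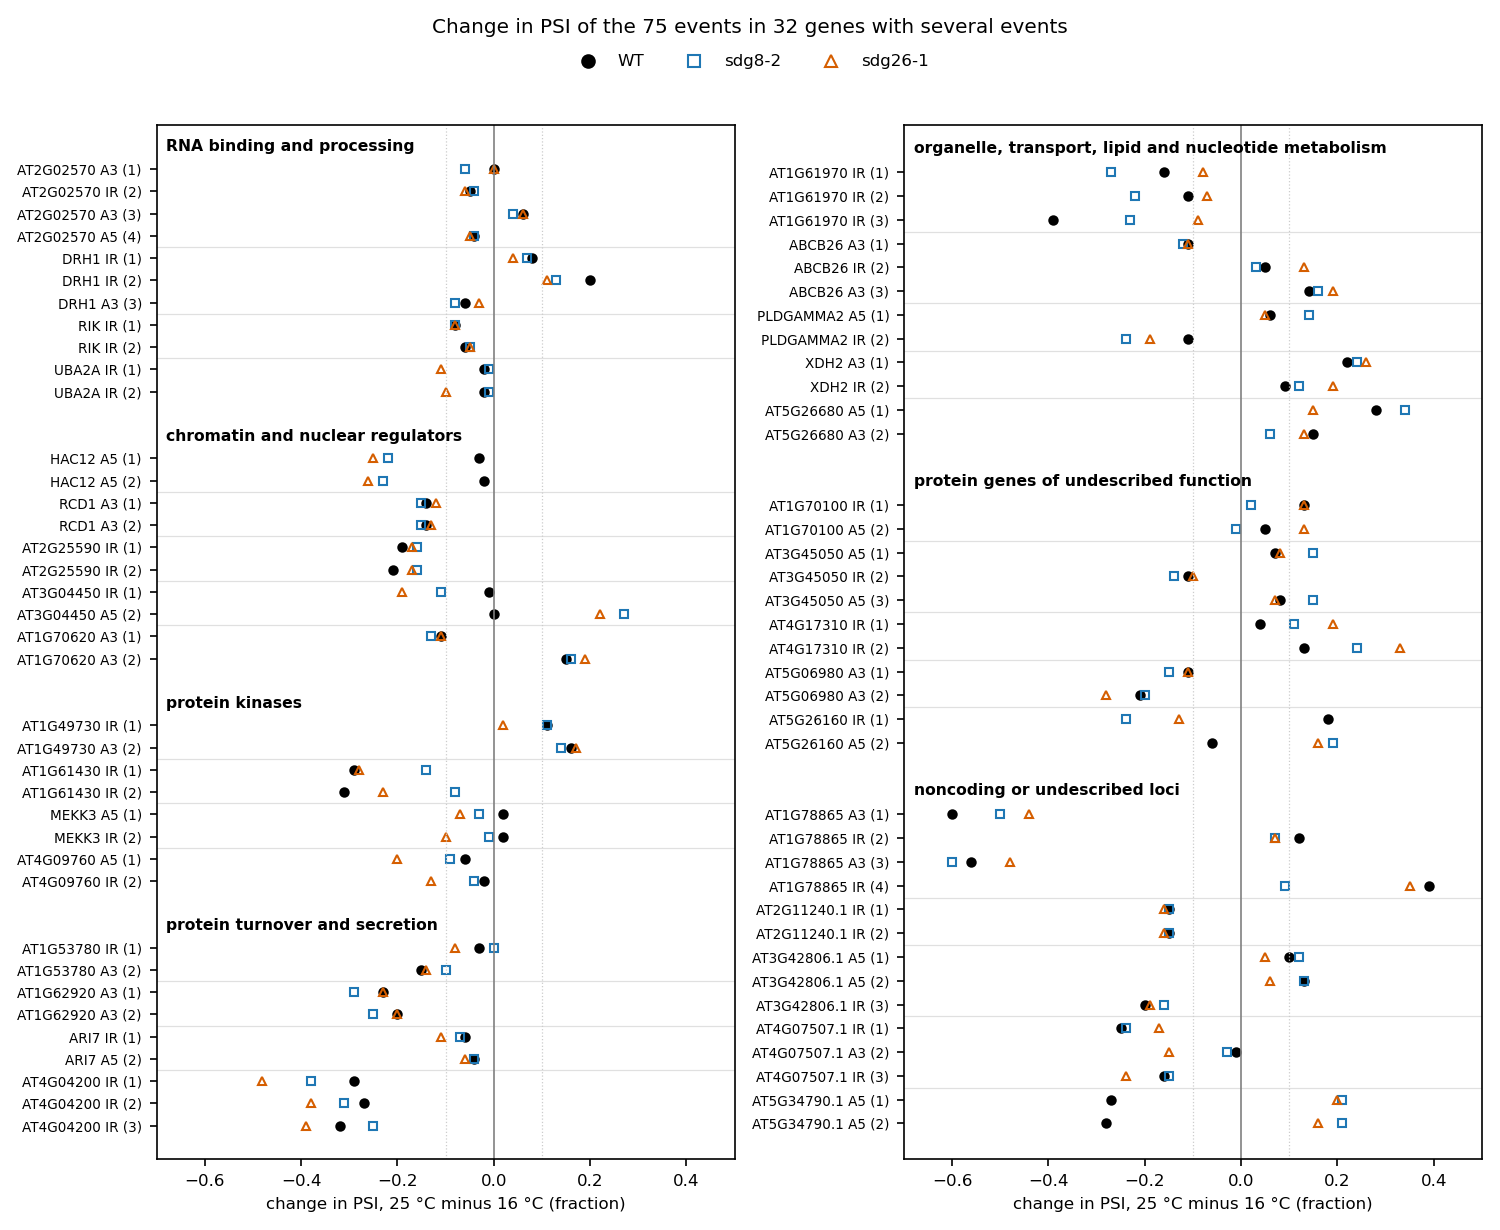
Change in PSI from 16 to 25 °C (horizontal axis, fraction) of each of the 75 events, grouped by the role of the gene, with the number of the event in its gene in parentheses; dots, squares and triangles are the pooled values of WT, *sdg8-2* and *sdg26-1*, and dotted lines mark a change of 0.1. The 3 genotypes lie on the same side of 0 in 65 events, and the values furthest from 0 belong to AT1G78865.

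Genes of RNA binding and processing had the smallest changes of the groups by median (0.06 for WT, 0.05 for *sdg8-2* and 0.06 for *sdg26-1* over 11 events in 4 genes). DRH1 (AT3G01540) encodes a DEAD-box RNA helicase, an enzyme that remodels RNA structure. Its second IR event went from a PSI of 0.71 to 0.91 in WT, 0.76 to 0.89 in *sdg8-2* and 0.72 to 0.83 in *sdg26-1*. Its first IR event lay much lower, from 0.19 to 0.27 in WT, 0.21 to 0.28 in *sdg8-2* and 0.19 to 0.23 in *sdg26-1*. Retention was thus higher at 25 °C in both IR events, while the A3 event was lower at 25 °C by 0.03 to 0.08. The PSI of the A3 event went from 0.78 to 0.72 in WT, 0.78 to 0.70 in *sdg8-2* and 0.79 to 0.76 in *sdg26-1*.

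AT2G02570, annotated as an RNA-binding protein, had 4 events that all changed by less than 0.1. Its IR event went from a PSI of 0.25 to 0.20 in WT, 0.20 to 0.16 in *sdg8-2* and 0.26 to 0.20 in *sdg26-1*. The A5 event followed it closely, from 0.22 to 0.18 in WT, 0.18 to 0.14 in *sdg8-2* and 0.23 to 0.18 in *sdg26-1*. The second A3 event (event 3) went the other way, from 0.77 to 0.83 in WT, 0.82 to 0.86 in *sdg8-2* and 0.77 to 0.83 in *sdg26-1*. The first A3 event stood at 0.88 at both temperatures in WT and at 0.90 at both in *sdg26-1*, and went from 0.92 to 0.86 in *sdg8-2*.

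RIK (AT3G29390) is a KH-domain RNA-binding protein known as a partner of the leaf regulator AS1. Its retention was lower at 25 °C by 0.05 to 0.08 in all genotypes and both IR events. UBA2A (AT3G56860), an RNA-recognition-motif protein of the nucleus, had 2 near-identical IR events, the first of which went from a PSI of 0.88 to 0.86 in WT, 0.89 to 0.88 in *sdg8-2* and 0.91 to 0.80 in *sdg26-1*. In this gene a change of at least 0.1 was present in *sdg26-1* and in neither other genotype. The relatives looked up for these genes (UBA2B, UBA2C, UBP1A, UBP1B, UBP1C, RH46, RH40, AS1 and AS2) had no listed event.

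Chromatin and nuclear regulators (5 genes, 10 events) included several of the events in which the mutants moved and WT did not. HAC12 (AT1G16710) encodes a histone acetyltransferase of the CBP/p300 family, which opens chromatin by acetylating histones. Its first A5 event went from a PSI of 0.28 to 0.25 in WT, 0.40 to 0.18 in *sdg8-2* and 0.52 to 0.27 in *sdg26-1*. Its second A5 event went from 0.32 to 0.30 in WT, 0.44 to 0.21 in *sdg8-2* and 0.57 to 0.31 in *sdg26-1*. The pair moved together: at 16 °C both mutants were above WT, and at 25 °C the 3 genotypes lay between 0.18 and 0.27 for the first and between 0.21 and 0.31 for the second. HAC1, a relative, had 1 A5 event with small changes, from 0.92 to 0.94 in WT, 0.90 to 0.94 in *sdg8-2* and 0.90 to 0.98 in *sdg26-1*, and HAC2, HAC4 and HAC5 had none.

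AT3G04450, a homeodomain-like protein, showed the largest difference between a mutant and WT at 16 °C among the 75 events. The PSI of its A5 event was 0.77 at both temperatures in WT, and went from 0.27 to 0.54 in *sdg8-2* and, less far, from 0.62 to 0.84 in *sdg26-1*. The IR event went from 0.43 to 0.42 in WT, 0.66 to 0.55 in *sdg8-2* and 0.57 to 0.38 in *sdg26-1*. In WT neither event moved by more than 0.01, whereas in both mutants the A5 event was higher and the intron less retained at 25 °C.

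RCD1 and AT2G25590 had a lower PSI at 25 °C in each genotype. The A3 events of RCD1 (AT1G32230), a nuclear protein that binds transcription factors and shapes responses to reactive oxygen, were near identical and went from 0.42 to 0.28 in WT, 0.44 to 0.29 in *sdg8-2* and 0.41 to 0.29 in *sdg26-1* for the first. AT2G25590, a Tudor-like protein, had 2 IR events with less retention at 25 °C. The first went from 0.39 to 0.20 in WT, 0.33 to 0.17 in *sdg8-2* and 0.31 to 0.14 in *sdg26-1*. The second, near identical, went from 0.41 to 0.20, from 0.34 to 0.18 and from 0.31 to 0.14. Its *sdg26-1* value at 16 °C lay 0.10 below WT. SRO1, the relative of RCD1 looked up, had no listed event. AT1G70620, annotated as cyclin-related, is described below with its neighbour ABCB26.

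The group of genes annotated as protein kinases (4 genes, 8 events) contained 1 gene whose response was smaller in *sdg8-2*. Membership follows the deposited annotation, and what these kinases act on was not checked. AT1G61430 encodes a receptor-like kinase with an S-locus lectin domain. Its first IR event went from a PSI of 0.52 to 0.23 in WT, 0.56 to 0.42 in *sdg8-2* and 0.58 to 0.30 in *sdg26-1*. Its second IR event went from 0.58 to 0.27 in WT, 0.56 to 0.48 in *sdg8-2* and 0.59 to 0.36 in *sdg26-1*. The genotypes lay within 0.06 of each other at 16 °C, and at 25 °C *sdg8-2* was above WT by 0.19 and 0.21.

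AT1G49730, a protein kinase, had an A3 event that went from 0.50 to 0.66 in WT, 0.55 to 0.69 in *sdg8-2* and 0.51 to 0.68 in *sdg26-1*. Its IR event went from 0.23 to 0.34 in WT, 0.20 to 0.31 in *sdg8-2* and 0.24 to 0.26 in *sdg26-1*. The A3 change was of like size in all genotypes (0.14 to 0.17), whereas the IR change was 0.11 in WT and *sdg8-2* and 0.02 in *sdg26-1*. MEKK3 (AT4G08470), a MAP kinase kinase kinase at the head of a phosphorylation cascade, had low PSI throughout: its IR event went from 0.12 to 0.14 in WT, 0.15 to 0.14 in *sdg8-2* and 0.21 to 0.11 in *sdg26-1*, and its A5 event stayed between 0.07 and 0.15. The A5 event of AT4G09760, annotated in the table as a protein kinase, went from 0.24 to 0.18 in WT, 0.23 to 0.14 in *sdg8-2* and 0.36 to 0.16 in *sdg26-1*, and its IR event lay between 0.15 and 0.28. In MEKK3 and AT4G09760 the *sdg26-1* value at 16 °C was the highest of the genotypes in each of the 4 events, above WT by 0.08 to 0.12.

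Every event of the genes for protein turnover and secretion (4 genes, 9 events) was lower or equal at 25 °C in each genotype, and the absolute change had a median of 0.20 for WT, 0.25 for *sdg8-2* and 0.20 for *sdg26-1*. AT4G04200 encodes a subunit of the signal peptidase complex, which cuts the signal peptides from proteins that enter the secretory pathway. Its first IR event went from a PSI of 0.77 to 0.48 in WT, 0.86 to 0.48 in *sdg8-2* and 0.87 to 0.39 in *sdg26-1*. The second went from 0.62 to 0.35 in WT, 0.66 to 0.35 in *sdg8-2* and 0.67 to 0.29 in *sdg26-1*. The third went from 0.84 to 0.52 in WT, 0.85 to 0.60 in *sdg8-2* and 0.87 to 0.48 in *sdg26-1*. In all 3 IR events of this gene the retained form was the major one at 16 °C and lay between 0.29 and 0.60 at 25 °C. The change was largest in *sdg26-1*.

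AT1G62920 has a domain of the UMP1 type, named after the factor that helps the proteasome core mature. Its first A3 event went from 0.57 to 0.34 in WT, 0.56 to 0.27 in *sdg8-2* and 0.61 to 0.38 in *sdg26-1*, and its second from 0.42 to 0.22 in WT, 0.42 to 0.17 in *sdg8-2* and 0.46 to 0.26 in *sdg26-1*. The annotation gives this gene 1 transcript, so neither A3 event has an annotated counterpart. AT1G53780, annotated in RefSeq as an ATPase of the proteasome regulatory complex, had an A3 event that went from 0.74 to 0.59 in WT, 0.72 to 0.62 in *sdg8-2* and 0.70 to 0.56 in *sdg26-1*, beside an IR event between 0.08 and 0.16 in all conditions. ARI7 (AT2G31510), a ubiquitin ligase of the ARIADNE family, had small changes, of 0.06 to 0.11 in its IR event and 0.04 to 0.06 in its A5 event, all of them lower at 25 °C. The UMP1 homologue AT1G67250 had no listed event.

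The group of organelle, transport, lipid and nucleotide metabolism (5 genes, 12 events) held changes in both directions. AT1G61970 belongs to the mitochondrial transcription termination factor (mTERF) family, whose members act on organelle gene expression. Its IR event 3 went from a PSI of 0.76 to 0.37 in WT, 0.56 to 0.33 in *sdg8-2* and 0.54 to 0.45 in *sdg26-1*. Event 1 went from 0.91 to 0.75 in WT, 0.92 to 0.65 in *sdg8-2* and 0.85 to 0.77 in *sdg26-1*, and event 2 from 0.91 to 0.80, from 0.92 to 0.70 and from 0.87 to 0.80 in the same order of genotypes. The IR events of this gene thus differed in how the genotypes were ordered. Event 3 changed most in WT, events 1 and 2 changed most in *sdg8-2*, and all 3 changed least in *sdg26-1*.

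AT5G26680, annotated as a 5′-3′ exonuclease, combined an A5 event that went from 0.48 to 0.76 in WT, 0.49 to 0.83 in *sdg8-2* and 0.46 to 0.61 in *sdg26-1* with an A3 event that went from 0.78 to 0.93 in WT, 0.89 to 0.95 in *sdg8-2* and 0.84 to 0.97 in *sdg26-1*. Both were higher at 25 °C in each genotype. XDH2 (AT4G34900) encodes a xanthine dehydrogenase, an enzyme of purine breakdown. Its A3 event went from 0.36 to 0.58 in WT, 0.28 to 0.52 in *sdg8-2* and 0.30 to 0.56 in *sdg26-1*, and its IR event from 0.46 to 0.55, from 0.49 to 0.61 and from 0.41 to 0.60. Its relative XDH1 had no listed event.

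PLDGAMMA2 (AT4G11830) encodes a phospholipase D, which releases phosphatidic acid from membrane lipids. Its IR event went from 0.70 to 0.59 in WT, 0.77 to 0.53 in *sdg8-2* and 0.75 to 0.56 in *sdg26-1*. The A5 event went the other way, from 0.81 to 0.87 in WT, 0.77 to 0.91 in *sdg8-2* and 0.82 to 0.87 in *sdg26-1*. PLDGAMMA3, a relative, had an A5 event that went from 0.84 to 0.83 in WT, 0.80 to 0.82 in *sdg8-2* and 0.94 to 0.66 in *sdg26-1*, and PLDGAMMA1 had none. In PLDGAMMA2 the shift was thus larger in *sdg8-2* than in WT for both events, whereas in PLDGAMMA3 only *sdg26-1* changed by more than 0.02.

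ABCB26 (AT1G70610) encodes an ABC transporter, and AT1G70620 is the next gene on chromosome 1, lying directly after it. The table lists both under the same assembled locus, and both A3 events of ABCB26 had PSI values within 0.01 of those of AT1G70620, so the same events may be listed under both names. One A3 event went from 0.35 to 0.24 in WT, 0.37 to 0.25 in *sdg8-2* and 0.34 to 0.23 in *sdg26-1* in ABCB26. The other A3 event went from 0.42 to 0.56, from 0.39 to 0.55 and from 0.41 to 0.60. The A3 events of this pair of genes thus changed in opposite directions from each other, and each kept its direction in every genotype. The IR event of ABCB26 went from 0.69 to 0.74 in WT, 0.70 to 0.73 in *sdg8-2* and 0.64 to 0.77 in *sdg26-1*.

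Among the protein genes grouped by their deposited annotation as of undescribed function (5 genes, 11 events), AT5G26160 changed direction between genotypes. Its IR event went from a PSI of 0.62 to 0.80 in WT, 0.93 to 0.69 in *sdg8-2* and 0.86 to 0.73 in *sdg26-1*. Its A5 event went from 0.23 to 0.17 in WT, 0.03 to 0.22 in *sdg8-2* and 0.07 to 0.23 in *sdg26-1*. The intron was retained more at 25 °C in WT and less in both mutants, and the A5 event did the reverse.

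AT4G17310 had more retention at 25 °C in both of its IR events. Its second IR event went from 0.61 to 0.74 in WT, 0.64 to 0.88 in *sdg8-2* and 0.50 to 0.83 in *sdg26-1*. The first went from 0.39 to 0.43 in WT, 0.37 to 0.48 in *sdg8-2* and 0.32 to 0.51 in *sdg26-1*. Both changes were smallest in WT and largest in *sdg26-1*. AT3G45050 had 2 near-identical A5 events, the first from 0.61 to 0.68 in WT, 0.56 to 0.71 in *sdg8-2* and 0.60 to 0.68 in *sdg26-1*, and an IR event that went from 0.59 to 0.48, from 0.62 to 0.48 and from 0.60 to 0.50. AT1G70100 had an IR event that went from 0.20 to 0.33 in WT, 0.28 to 0.30 in *sdg8-2* and 0.19 to 0.32 in *sdg26-1*, and an A5 event that went from 0.84 to 0.89, from 0.83 to 0.82 and from 0.72 to 0.85.

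AT5G06980 has the name LNK4 in RefSeq and belongs to the LNK family, whose members LNK1 and LNK2 are known as transcriptional coactivators of the circadian clock. Its second A3 event went from a PSI of 0.79 to 0.58 in WT, 0.73 to 0.53 in *sdg8-2* and 0.81 to 0.53 in *sdg26-1*, and its first from 0.96 to 0.85, from 0.92 to 0.77 and from 0.96 to 0.85. Both were lower at 25 °C in each genotype. LNK2 had an IR event that went from 0.18 to 0.53 in WT, 0.24 to 0.46 in *sdg8-2* and 0.26 to 0.52 in *sdg26-1*. The A3 event of LNK2 was higher at 25 °C, from 0.04 to 0.09 in WT, 0.03 to 0.07 in *sdg8-2* and 0.04 to 0.12 in *sdg26-1*. LNK1 had an exon skipping event that went from 0.56 to 0.49, from 0.60 to 0.48 and from 0.54 to 0.44, and LNK3 had no listed event. Of the 21 relatives looked up for these genes in all, 4 had a listed event.

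The noncoding or undescribed loci (5 genes, 14 events) included the largest changes. AT1G78865, annotated as a noncoding RNA with 1 transcript, had 2 A3 events and 2 IR events. The first A3 event went from a PSI of 0.65 to 0.05 in WT, 0.53 to 0.03 in *sdg8-2* and 0.72 to 0.28 in *sdg26-1*, and the other (event 3) from 0.74 to 0.18, from 0.67 to 0.07 and from 0.77 to 0.29. The IR events went the other way: event 4 went from 0.61 to 1.00 in WT, 0.91 to 1.00 in *sdg8-2* and 0.64 to 0.99 in *sdg26-1*, and event 2 from 0.82 to 0.94, from 0.90 to 0.97 and from 0.88 to 0.95. At 25 °C the PSI of both IR events was thus 0.94 or more in every genotype. In *sdg8-2* event 4 already stood at 0.91 at 16 °C, whereas in WT and *sdg26-1* it lay at 0.61 and 0.64.

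AT5G34790.1, annotated as a pseudogene with no intron, had 2 near-identical A5 events with opposite directions in WT and in the mutants. The first went from 0.47 to 0.20 in WT, 0.24 to 0.45 in *sdg8-2* and 0.17 to 0.37 in *sdg26-1*. The second went from 0.46 to 0.18, from 0.24 to 0.45 and from 0.18 to 0.34. WT was the highest of the genotypes at 16 °C and the lowest at 25 °C in both events.

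The other pseudogenes had changes in both directions. The IR events of AT2G11240.1 were near identical and went from 0.49 to 0.34 in WT, 0.51 to 0.36 in *sdg8-2* and 0.50 to 0.34 in *sdg26-1* for the first. In AT3G42806.1 the IR event went from 0.39 to 0.19 in WT, 0.36 to 0.20 in *sdg8-2* and 0.39 to 0.20 in *sdg26-1*, and the near-identical A5 events were higher at 25 °C, the first from 0.59 to 0.69, from 0.55 to 0.67 and from 0.58 to 0.63. In this locus retention and the A5 events thus went opposite ways in each genotype. AT4G07507.1 had less retention at 25 °C in both IR events. The first went from 0.75 to 0.50 in WT, 0.69 to 0.45 in *sdg8-2* and 0.74 to 0.57 in *sdg26-1*. The other (event 3) went from 0.43 to 0.27, from 0.39 to 0.24 and from 0.51 to 0.27. Its A3 event went from 0.92 to 0.91 in WT, 0.95 to 0.92 in *sdg8-2* and 0.96 to 0.81 in *sdg26-1*, where it ended 0.10 below WT.

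**Figure D2:**
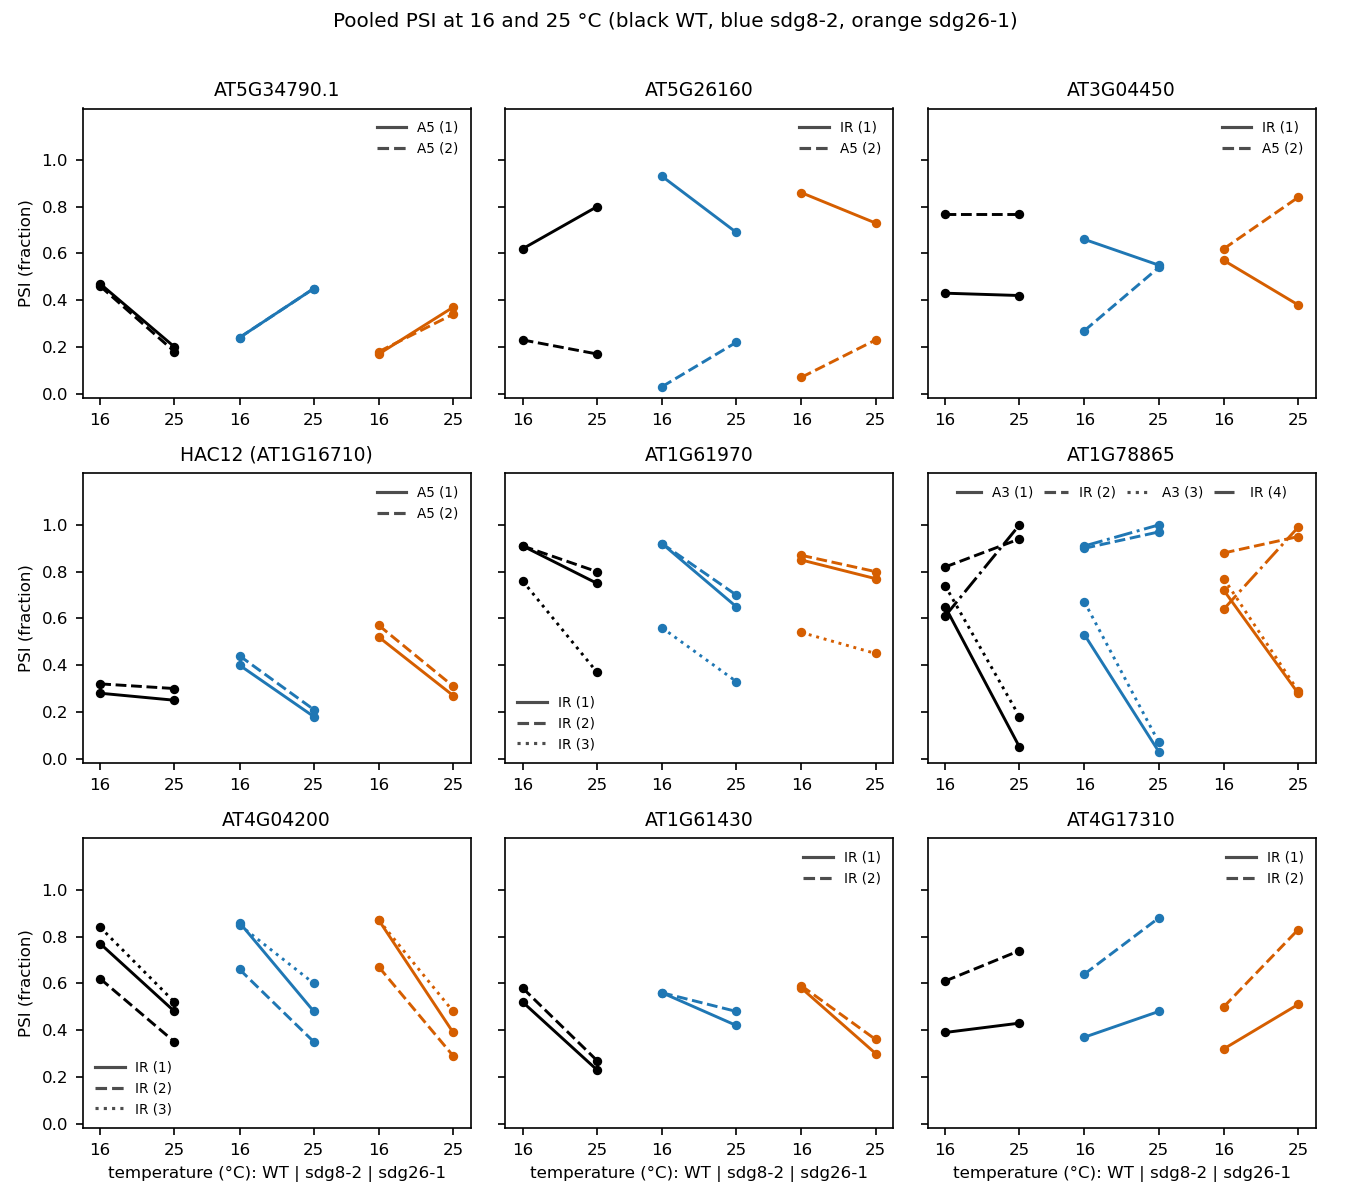
Pooled PSI (vertical axis, fraction) at 16 and 25 °C in WT (black), *sdg8-2* (blue) and *sdg26-1* (orange) for 9 genes, with 1 line style per event and no error bars because each point is 1 value. The lines of AT5G34790.1 and of the IR event of AT5G26160 slope in opposite directions in WT and in the mutants, those of HAC12 and AT3G04450 are nearly flat in WT only, and those of AT4G04200 run down in every genotype.

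Events of 1 type in the same gene mostly changed in the same direction, whereas events of different types in a gene often did not. All events of a gene shared the direction in 22 of 32 genes in WT, 20 in *sdg8-2* and 22 in *sdg26-1*, and in 9, 11 and 10 genes they diverged. In the remaining gene of WT and of *sdg8-2* fewer than 2 events had a change other than 0. Near-identical events leave little room for differing directions. With them counted once, the genes with a shared direction numbered 17 in WT, 15 in *sdg8-2* and 17 in *sdg26-1*. Genes then left with fewer than 2 events drop out of this count, so its base is smaller than 32. Of the 14 genes with 1 event type, 13 had a shared direction in each genotype, the exception being AT1G70620. These 13 include RCD1, AT2G25590, UBA2A, AT2G11240.1 and AT5G34790.1, whose only events were near identical. For those genes a shared direction carries no further information. Of the 18 genes with several types, 9 had a shared direction in WT, 7 in *sdg8-2* and 9 in *sdg26-1*. Of the 26 pairs of events of the same gene and type, 7 had PSI values within 0.03 of each other in all 6 conditions and may be 1 event listed more than once. Of the other 19 pairs, in 14 genes, 16 had the same direction in all genotypes. In 4 of the 19 the changes were within 0.05 of each other in every genotype. These pairs are not independent, since AT4G04200 and AT1G61970 each gave several. The A3 pairs of ABCB26 and AT1G70620, both with opposite directions, may be the same events.

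The signs of the changes in IR and site events of the same gene were mixed. Among 15 pairs of an IR and an A3 event (8 genes), the signs were the same in all genotypes in 5 pairs and opposite in all genotypes in 8. Opposite pairs were found in 4 genes, ABCB26, AT1G78865, AT2G02570 and DRH1. Pairs with the same sign were also found in 4 genes, and ABCB26 had both kinds. Pairs of a gene are not independent, and AT1G78865 and DRH1 each gave several of the opposite pairs. Among 12 pairs of an IR and an A5 event (10 genes), 4 were the same throughout, in AT2G02570, ARI7, MEKK3 and AT4G09760, and 6 were opposite throughout, in AT3G42806.1, AT3G45050, PLDGAMMA2 and AT5G26160. AT1G70100 and AT3G04450 had mixed signs. The near-identical A5 events of AT3G42806.1 and AT3G45050 were counted separately in these pairs. Counted by gene, 4 genes had the same sign throughout and 4 had opposite signs. Neither for A3 nor for A5 events were opposite signs thus more frequent than same signs when genes were counted. Of the genes whose annotated sites are shown above, AT1G49730 had the same sign for IR and A3, AT2G02570 the same sign for IR and A5, and AT3G45050 and PLDGAMMA2 opposite signs for IR and A5. Because the form counted as spliced in is not known for A3 and A5 events, an opposite sign does not show which site gained. For the same reason the mix of signs cannot show whether retention and site choice moved together across genes.

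**Figure D3:**
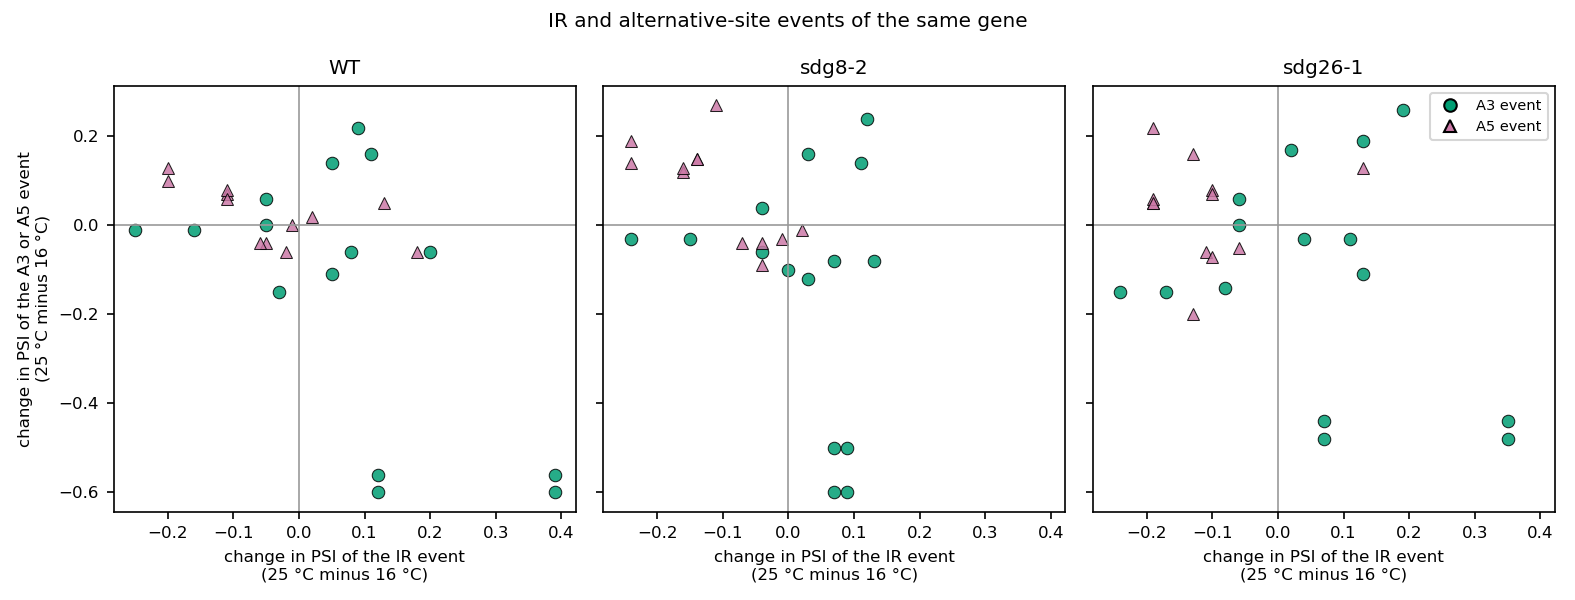
Change in PSI of the A3 (circles) or A5 (triangles) event against the change of the IR event of the same gene (both axes in fraction, 25 °C minus 16 °C) for 27 pairs in 17 genes, 1 panel per genotype. Points fall in all quadrants, and the lowest points are the A3 events of AT1G78865.

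Before the temperature change, at 16 °C, most events had nearly the WT value in the mutants. The median absolute difference from WT was 0.03 in both mutants at 16 °C and again at 25 °C. In *sdg8-2* at 16 °C, 12 events differed from WT by at least 0.1 (16.0%, all listed 18.3%), 6 higher (8.0%, all listed 11.3%) and 6 lower (8.0%, all listed 7.02%). In *sdg26-1* at 16 °C, 14 events did so (18.7%, all listed 14.3%), 6 higher (8.0%, all listed 6.77%) and 8 lower (10.7%, all listed 7.52%). These shares lie near those of all listed events. In *sdg8-2* alone the limit was passed by the A3 event of AT5G26680 and by event 1 and event 4 of AT1G78865. In *sdg26-1* alone it was passed by event 2 of AT2G25590, the A5 events of AT4G09760 and AT1G70100, event 1 of AT4G04200 and event 2 of AT4G17310.

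Both mutants are compared with the same WT value, so their differences are given side by side and are not independent of each other. The limit was passed in both at 16 °C by 9 events of HAC12, AT3G04450, AT5G26160 and AT5G34790.1, each with both of its events, and AT1G61970 with its IR event 3. In HAC12 the difference was 0.12 for both events in *sdg8-2*, and 0.24 and 0.25 in *sdg26-1*. In AT3G04450 it was 0.23 and 0.14 for the IR event and −0.50 and −0.15 for the A5 event, in *sdg8-2* and *sdg26-1*. AT5G26160 had 0.31 and 0.24 for the IR event and −0.20 and −0.16 for the A5 event in the same order. In IR event 3 of AT1G61970 the PSI lay below WT by 0.20 and 0.22. The first event of AT5G34790.1 had −0.23 and −0.30. These events were picked by their difference at 16 °C, and at 25 °C it was smaller in both mutants in 7 of the 9 (77.8%), beside 26 of 34 picked in this way over the whole table (76.5%). The exceptions were the events of AT5G34790.1 in *sdg8-2*.

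At 25 °C, *sdg8-2* differed from WT by at least 0.1 in 11 events (14.7%, all listed 15.0%), 6 higher (8.0%, all listed 7.77%) and 5 lower (6.67%, all listed 7.27%). In *sdg26-1* the count was 6 (8.0%, all listed 9.52%), 4 higher (5.33%, all listed 5.01%) and 2 lower (2.67%, all listed 4.51%). In *sdg8-2* the higher events were those of AT1G61430 and AT5G34790.1, the second IR event of AT4G17310 and the IR event of AT3G04450. The lower ones were the A5 event of AT3G04450, events 1 and 2 of AT1G61970, the IR event of AT5G26160 and event 3 of AT1G78865. In *sdg26-1*, 5 of the 6 belonged to noncoding or undescribed loci (both A3 events of AT1G78865, both events of AT5G34790.1 and the A3 event of AT4G07507.1), and the other was the A5 event of AT5G26680.

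**Figure D4:**
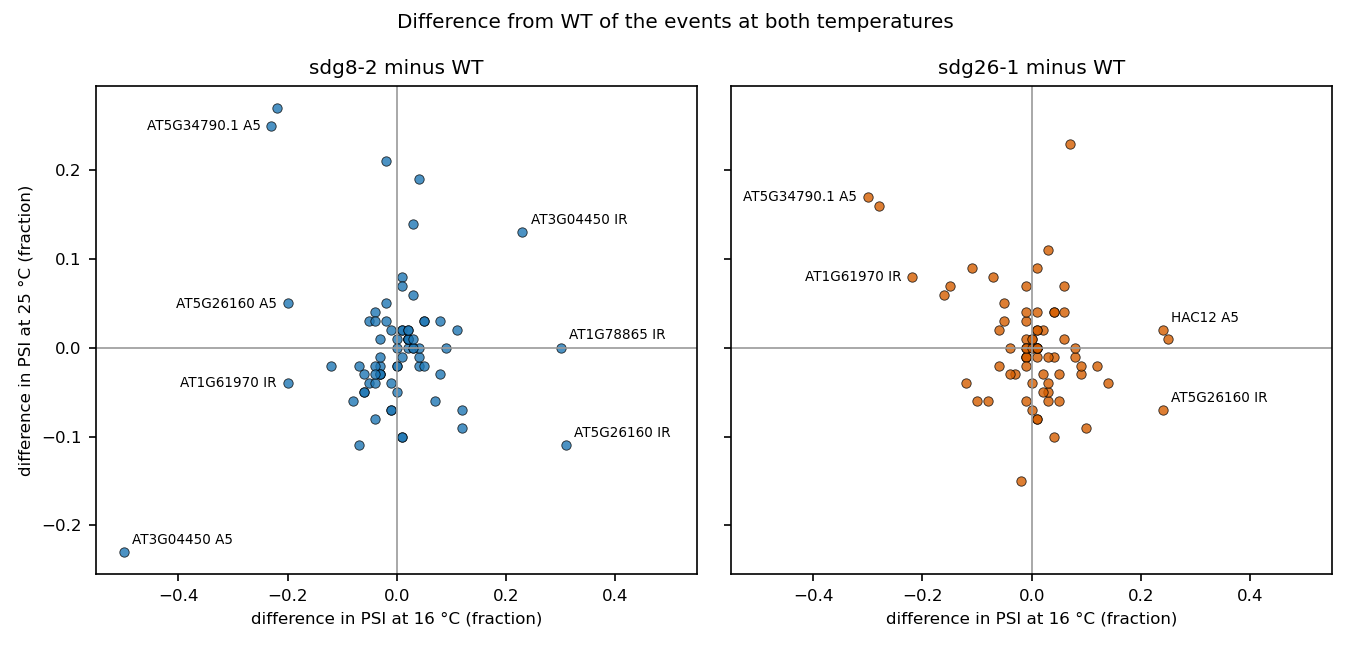
Difference in PSI between *sdg8-2* (left) or *sdg26-1* (right) and WT at 16 °C (horizontal axis, fraction) and at 25 °C (vertical axis, fraction), 1 point for each of the 75 events, with names for events that differed by at least 0.2 at 16 °C. Most points lie within 0.1 of 0 on both axes, and the A5 event of AT3G04450 in *sdg8-2* lies furthest from 0, at −0.50 and −0.23.

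Changes of at least 0.1 in opposite directions in WT and a mutant were found in 3 events for *sdg8-2* and in the same 3 events for *sdg26-1* (4.0% each, all listed 1.5%). They were the IR event of AT5G26160 and both A5 events of AT5G34790.1, which are near identical. The limit of 0.1 was passed in WT and neither mutant by 1 event (1.33%, all listed 5.51%), in *sdg8-2* alone by 3 (4.0%, all listed 9.52%) and in *sdg26-1* alone by 9 (12.0%, all listed 11.0%). WT had the largest absolute change in 17 events (22.7%, all listed 25.8%), *sdg8-2* in 22 (29.3%, all listed 34.8%) and *sdg26-1* in 31 (41.3%, all listed 33.1%), with ties in 5 (6.67%, all listed 6.27%). None of these counts has a test, since each rests on 1 pooled value per condition.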

How the data were processed

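RNA-seq was done on 18 samples, 3 for each of 6 conditions. TopHat2, Cufflinks and the TAIR10 build are named in the submitters' processing notes. Per the paper's methods, the authors extended the annotation with assembled transcripts and estimated PSI with MISO on reads merged over the replicates of a condition, and the deposited PSI is a fraction with 2 decimals. The sources used here give no tool versions. The authors' differences of PSI and yes or no calls also stand in the table and were not used. The authors used the single replicates to filter events, by a minimum of form-specific reads and by requiring a larger difference between than within conditions. Calls depend on the read depth of an event, which is unknown here beyond that minimum.

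Changes were recomputed from the deposited PSI in Python 3.11.15 (numpy 2.4.6, matplotlib 3.10.9) and counted at 0.1 or more, with every listed event as background. The counting code was checked on simulated events with known answers, which assesses the code and not the counts reported. No test across samples was possible, since replicates were pooled. Events of one assembled locus and type within 0.03 in all 6 conditions were called near identical. Alternatives changed the smallest change counted, counted near-identical events once or 1 event per gene, or left out undescribed loci.

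Genes with 3 or more events, with a change of at least 0.2 in any genotype, with opposite directions between genotypes or among their events, or with a difference of at least 0.15 from WT at 16 °C were named with all PSI values of the events concerned, and the rest by role. Some near-identical events are given by the values of the first only. The members, role groups and relatives were chosen with earlier results of these data known. RefSeq (TAIR10.1) matched 332 of 334 gene identifiers, and its coding coordinates equal those of the table in all 27 of these genes for which the table gives any. A planned count of the H3K36me3 mark of these genes was not made, because the table used here has no column for it.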

Additional observations from a re-analysis of the deposited data

Results flagged for a closer look

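The temperature change had opposite directions in WT and in the mutants in 3 events of 2 genes. The difference between genotypes was not tested, since each value is 1 pooled estimate. In the IR event of AT5G26160, the change of *sdg8-2* minus that of WT was −0.42, and that of *sdg26-1* minus WT was −0.31. In the first A5 event of AT5G34790.1 the same differences were 0.48 in *sdg8-2* and 0.47 in *sdg26-1*, and in its second A5 event, near identical to the first, they were 0.49 and 0.44. AT5G34790.1 is annotated as a pseudogene with no intron, so its events rest on assembled transcripts.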

How the results depend on the processing

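No paired analysis was possible because the table gives 1 value pooled over the replicates of a condition, and for the same reason no replicate could be left out. Of 84 alternative values, 56 stayed within 1.5 times the reported value, and 28 did not. Counting near-identical events once moved 0 of 21 values past that limit, and taking directions only from changes of at least 0.05 moved 0 of 3.

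With changes of at least 0.05 counted, 23 events were higher at 25 °C in WT, and the differences from WT at 16 °C numbered 27 in *sdg8-2* and 30 in *sdg26-1*, and at 25 °C 26 and 27. With changes of at least 0.2, WT had 4 higher and 16 lower events, *sdg8-2* had 6 and 16, and *sdg26-1* had 5 and 14. Differences from WT of at least 0.2 numbered 6 in *sdg26-1* at 16 °C, and 4 in *sdg8-2* and 1 in *sdg26-1* at 25 °C. Opposite directions between WT and *sdg26-1* were then left in 1 event. With 1 event per gene (32 events), WT had 9 higher and 15 lower events, *sdg8-2* had 9 and 16, and *sdg26-1* had 10 and 19, and differences from WT numbered 5 and 9 at 16 °C and 6 and 3 at 25 °C in *sdg8-2* and *sdg26-1*. Without the undescribed loci (61 events), *sdg26-1* differed from WT at 25 °C in 1 event, and opposite directions remained in 1 event for each mutant. Fewer events and the stricter or looser limit give these counts by construction. Shares over all listed events were taken only at 0.1 with every event counted. The alternative counts therefore have no such share beside them and do not show whether these genes differ from the rest. The read depth, unknown beyond a minimum the authors set, limits every PSI, and at 2 decimals changes near 0.1 can fall on either side of the limit.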
